A study of Drosophila melanogaster with 2 samples.

Results

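The regions described here are those on chromosome 4 of Drosophila melanogaster that were called in a ChIP-seq experiment on the zinc finger protein E(var)3-9. They were chosen by position alone: every region of the authors' joint list, made from both replicates together, that lies on chromosome 4. There were 325 such regions of 24963 in all, and 40 of them were also in the authors' thresholded list of 3438 IDR peaks. IDR is a measure of how well the ranks of regions agree between replicates. In the files, the IDR peaks were the 3438 strongest regions of the joint list, so being an IDR peak amounts to exceeding a signal threshold. The lists of the separate replicates held 30000 regions each, of which 466 (replicate 2) and 300 (replicate 3) lay on chromosome 4.

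All samples belong to 1 group, whole embryos of both sexes aged 0 to 24 h after laying, from a line that stably carries E(var)3-9 with GFP at its C-terminus. Protein-bound DNA was recovered with an antibody against GFP from chromatin sonicated to 200 to 800 bp. Biological replicates 2 and 3 came from separate biosamples of this line. Chromatin of all embryonic tissues and stages was pooled, and the labels do not say which promoter drives the fusion or whether untagged E(var)3-9 was present. There is no second condition or genotype, the control library was not analysed here, and read depth is unknown, so chromosome 4 was set beside the other 5 arms and each replicate was examined alone. Shares carry 95% Wilson intervals, which cover counting of regions or genes only. No p-values are given, since there is 1 group and neighbouring regions are not replicates. An arm-to-arm difference is therefore described by the range over the other 5 arms, by the interval and by whether it stood in both replicates.

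Chromosome 4, the dot chromosome, is the smallest chromosome of this fly. Much of its banded part carries heterochromatin proteins such as HP1a together with methylated histone H3 lysine 9, laid down there mainly by the methyltransferase encoded by egg, and its genes are bound by the protein POF, yet many of those genes are actively transcribed in embryos. E(var)3-9 was named from mutations that enhance position-effect variegation, the patchy silencing of a gene placed next to heterochromatin. In the reference, chromosome 4 had 1331131 bases other than N, 64.8% of them A or T, against 57.8% on the other 5 arms. Annotated transposable elements covered 24.8% of chromosome 4 and 5.74% of the other arms (arm range 4.06% to 7.74%). It held 60.1 protein-coding genes per megabase (80 genes), against 105 on the other arms, and their median span was 10090 bp, against 2156 bp on the other arms.

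The sequences under the summits that carry the main results are given here from the RefSeq Release 6 genome in dm6 coordinates, 5′ to 3′ on the plus strand. A summit is the position of highest signal that the authors' list gives for a region. Each stretch reaches at most 100 bp to either side of a summit and stops where an annotated UTR begins. Capitals mark matches on either strand. The letters CGATA, or their reverse complement, are the core of the site of the insulator protein BEAF-32. The palindrome TATCGATA is the DNA replication-related element, bound by the transcription factor DREF, and it contains CGATA on both strands. TATAAA, marked in RpS3A, is the TATA box. PlexA, gw, PlexB and RpS3A are peaks just upstream of a TSS (transcription start site), ey and Hcf are further peaks with the palindrome, and the last is the strongest peak far from any TSS, in which none of the 12 motifs searched was found.
PlexA, chr4:1027148-1027348: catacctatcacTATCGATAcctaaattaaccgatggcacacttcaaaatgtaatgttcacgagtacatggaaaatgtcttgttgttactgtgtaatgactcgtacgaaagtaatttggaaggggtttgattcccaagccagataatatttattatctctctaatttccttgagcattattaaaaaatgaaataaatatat
ey, chr4:696813-697013: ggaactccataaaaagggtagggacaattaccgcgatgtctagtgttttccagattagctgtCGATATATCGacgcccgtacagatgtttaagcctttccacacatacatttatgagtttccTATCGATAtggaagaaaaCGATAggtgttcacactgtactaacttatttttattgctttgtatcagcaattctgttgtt
Hcf, chr4:359784-359937: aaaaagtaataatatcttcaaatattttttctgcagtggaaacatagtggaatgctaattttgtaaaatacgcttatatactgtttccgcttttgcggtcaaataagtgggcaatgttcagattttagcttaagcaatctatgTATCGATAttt
gw, chr4:660609-660801: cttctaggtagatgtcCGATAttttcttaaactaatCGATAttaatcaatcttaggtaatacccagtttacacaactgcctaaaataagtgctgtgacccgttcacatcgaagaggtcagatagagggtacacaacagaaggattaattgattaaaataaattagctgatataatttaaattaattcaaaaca
PlexB, chr4:43779-43972: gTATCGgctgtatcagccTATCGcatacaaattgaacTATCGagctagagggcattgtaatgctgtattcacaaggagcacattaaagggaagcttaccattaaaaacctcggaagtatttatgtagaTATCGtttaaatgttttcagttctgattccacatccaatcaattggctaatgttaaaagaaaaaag
RpS3A, chr4:67208-67390: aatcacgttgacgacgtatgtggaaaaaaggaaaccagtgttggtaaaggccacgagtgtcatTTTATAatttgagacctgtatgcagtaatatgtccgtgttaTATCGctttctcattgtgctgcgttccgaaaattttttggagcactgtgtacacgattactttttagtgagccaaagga
upstream of lncRNA:CR43437, chr4:424707-424907: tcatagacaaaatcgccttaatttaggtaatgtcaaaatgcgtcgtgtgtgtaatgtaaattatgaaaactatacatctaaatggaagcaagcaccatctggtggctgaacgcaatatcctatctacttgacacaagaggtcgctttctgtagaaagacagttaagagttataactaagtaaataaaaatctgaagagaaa

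IDR peaks were about as dense on chromosome 4 as elsewhere, whereas weaker regions were denser in the joint list and in replicate 2 but not in replicate 3. There were 30.05 IDR peaks per megabase (Mb) of bases other than N on chromosome 4 and 25.7 on the other 5 arms, which ranged from 23.3 (2R) to 27.0 (2L). The interval of the chromosome 4 value, 22.1 to 40.8, spans all of those arms. Some IDR peaks overlap, namely pairs at gw, RpS3A and apolpp. With overlapping regions merged, chromosome 4 had 37 stretches, or 27.8 per Mb, against 24.3 elsewhere. Over all joint regions the density was 244 per Mb on chromosome 4 and 186 on the other arms (164 on 2R to 206 on 2L). Replicate 2 alone had 350 regions per Mb on chromosome 4 and 223 on the other arms (204 to 239). In replicate 3 the values were 225 on chromosome 4 and 224 on the other arms (200 to 249), so the excess was not seen in replicate 3 alone. Among the strongest 3438 regions of each replicate, replicate 2 gave 31.6 per Mb on chromosome 4 and 25.7 elsewhere, and replicate 3 gave 23.3 on chromosome 4 and 25.7 elsewhere.

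**Figure D1:**
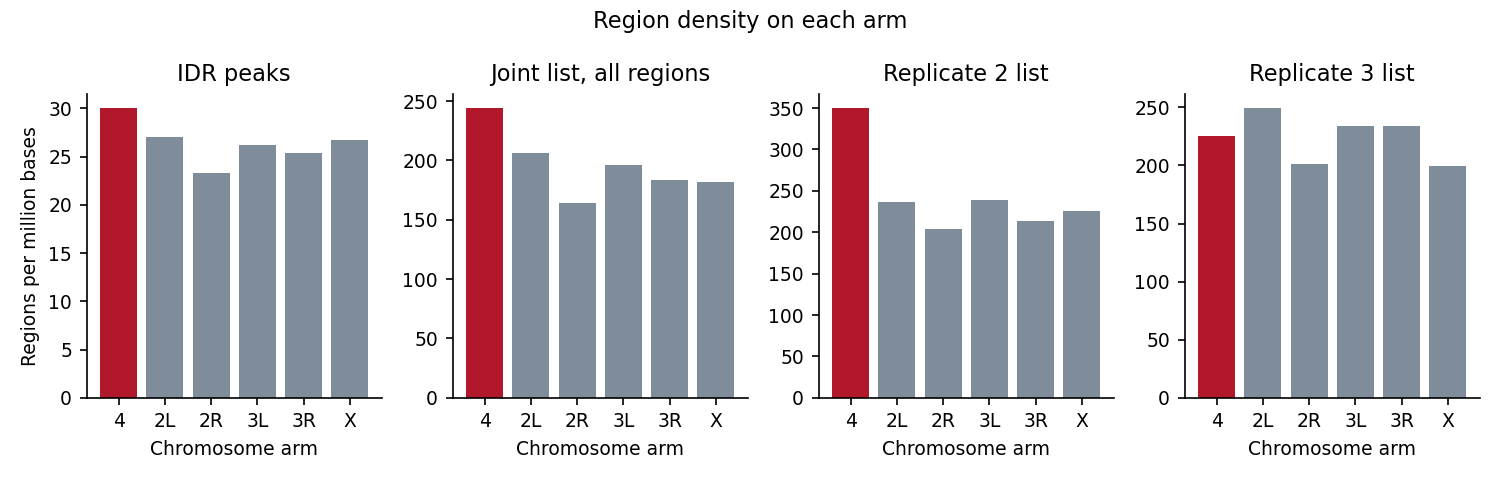
Regions per Mb of bases other than N on chromosome 4 (red) and on each of the other 5 arms (grey), in the IDR peaks, the joint list and each replicate's complete list; each bar is 1 list on 1 arm, and axes start at 0. Chromosome 4 stands above every other arm in the joint list (244) and in replicate 2 (350) and within their range in replicate 3 (225).

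The IDR peaks of chromosome 4 were of moderate strength. The signal value is the authors' own score per region, larger for stronger regions and with no stated scale. Arms were compared only within a list. The replicate lists were scored separately, so which replicate is higher is read only against other peaks. The median joint signal of IDR peaks was 78.3 on chromosome 4 and 89.5 on the other 5 arms, whose medians lay between 87.4 and 91.7. The strongest peak of chromosome 4 had a signal of 214 and was number 278 in the genome. Only 4 of the 40 peaks (10%, interval 3.96% to 23.1%) were among the strongest 860 IDR peaks of the genome, against 25.2% on the other arms (23.1% to 26.4%). Those 4 were the peaks at PlexA, beside lncRNA:CR43437, at RpS3A and at the 3′ ends of Cals and sv. Both replicates had the lower median too: among the strongest regions of replicate 2 it was 48.5 on chromosome 4 and 53.3 elsewhere (arms 51.5 to 54.5), and in replicate 3 it was 32.9 on chromosome 4 and 38.2 elsewhere (37.4 to 39.1). Over the complete lists the difference was small or changed side, with a joint median of 23.8 on chromosome 4 and 24.9 elsewhere, 12.99 and 13.4 in replicate 2, and 13.6 and 13.3 in replicate 3.

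Of the regions on chromosome 4, 12.3% were IDR peaks (40 of 325, interval 9.17% to 16.3%), against 13.8% of all joint regions in the genome. The share differed by position. Among regions with a summit within 500 bp of a TSS, 31.1% were IDR peaks on chromosome 4 (32 of 103) and 27.7% on the other arms (25.4% to 29.1%). Among the remaining regions 3.604% were IDR peaks on chromosome 4 (8 of 222, interval 1.84% to 6.95%) and 8.74% on the other arms (7.51% to 11.0%).

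The strong regions of chromosome 4 were concentrated at promoters to a greater degree than on any other arm, and nearly absent from introns. The summit lay within 500 bp of a TSS in 80.0% of IDR peaks on chromosome 4 (32 of 40, interval 65.2% to 89.5%), against 53.9% in the whole genome and 53.6% on the other 5 arms (44.7% on X to 60.5% on 2R). Promoter sequence so defined was 10.7% of chromosome 4 and 13.6% of the other arms. The promoter share was 76.2% on chromosome 4 and 53.7% elsewhere among the strongest regions of replicate 2, and 77.4% on chromosome 4 and 50.1% elsewhere among those of replicate 3. Among the strongest 860 IDR peaks of the genome, the 4 on chromosome 4 included 2 at promoters (50%, against 62.4% elsewhere). A single IDR peak of chromosome 4 (2.50%, interval 0.443% to 12.9%) had its summit in an intron beyond 500 bp of a TSS, against 33.4% on the other arms (27.2% to 45.5%), although introns made up 42.6% of chromosome 4 and 39.4% of the other arms. The strongest regions of replicate 2 had 2.38% of summits in introns on chromosome 4 and 33.3% elsewhere, and those of replicate 3 had 0 of 31 on chromosome 4 and 35.1% elsewhere. Per Mb of promoter sequence there were 221 IDR summits on chromosome 4 and 101.1 on the other arms (94.3 to 106), and per Mb outside promoters there were 6.65 on chromosome 4 and 13.8 elsewhere (10.8 to 16.9).

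Summits sat close to the TSS and mostly on its upstream side. The median distance of an IDR summit from the nearest TSS was 144.5 bp on chromosome 4 and 415 bp on the other arms (312.5 to 736 bp). Of the 32 promoter summits on chromosome 4, 29 lay upstream (90.6%), against 85.9% on the other arms (84.0% to 88.3%), and the median position was −93.5 bp on chromosome 4 and −125 bp on the other arms (−149.5 to −120 bp). The 3 downstream summits were 2 in apolpp, at 21 and 240 bp, and that of MED26, which encodes a Mediator subunit, at 394 bp.

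**Figure D2:**
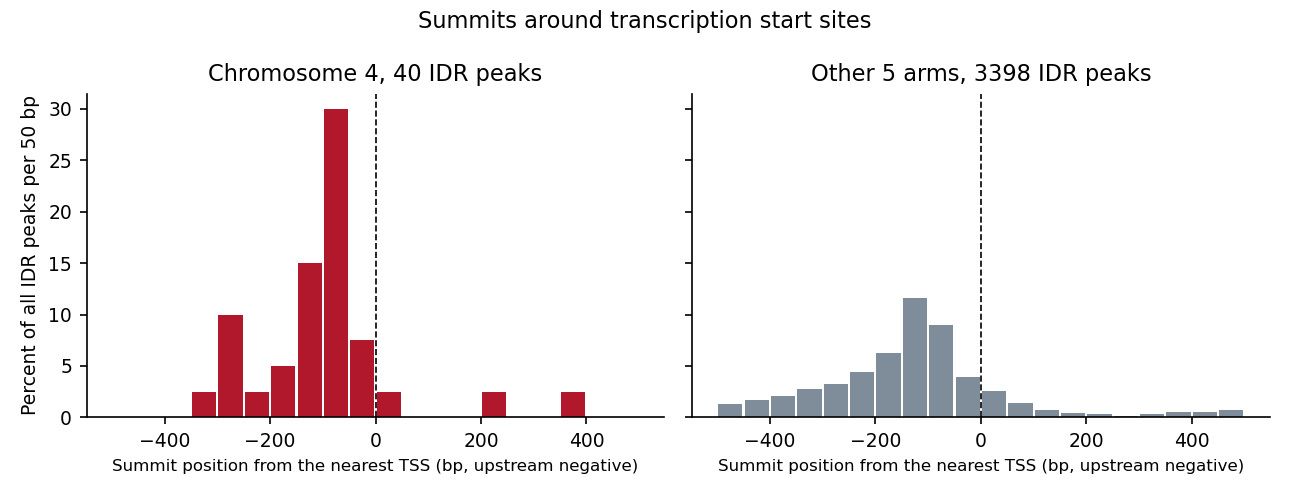
Position of IDR summits relative to the nearest TSS within 500 bp, in bins of 50 bp as a percentage of all IDR peaks, for chromosome 4 (left, 40 peaks) and the other 5 arms (right, 3398 peaks); negative is upstream, and the dashed line is the TSS. Most summits lie upstream in both, with medians of −93.5 bp on chromosome 4 and −125 bp on the other arms.

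**Figure D3:**
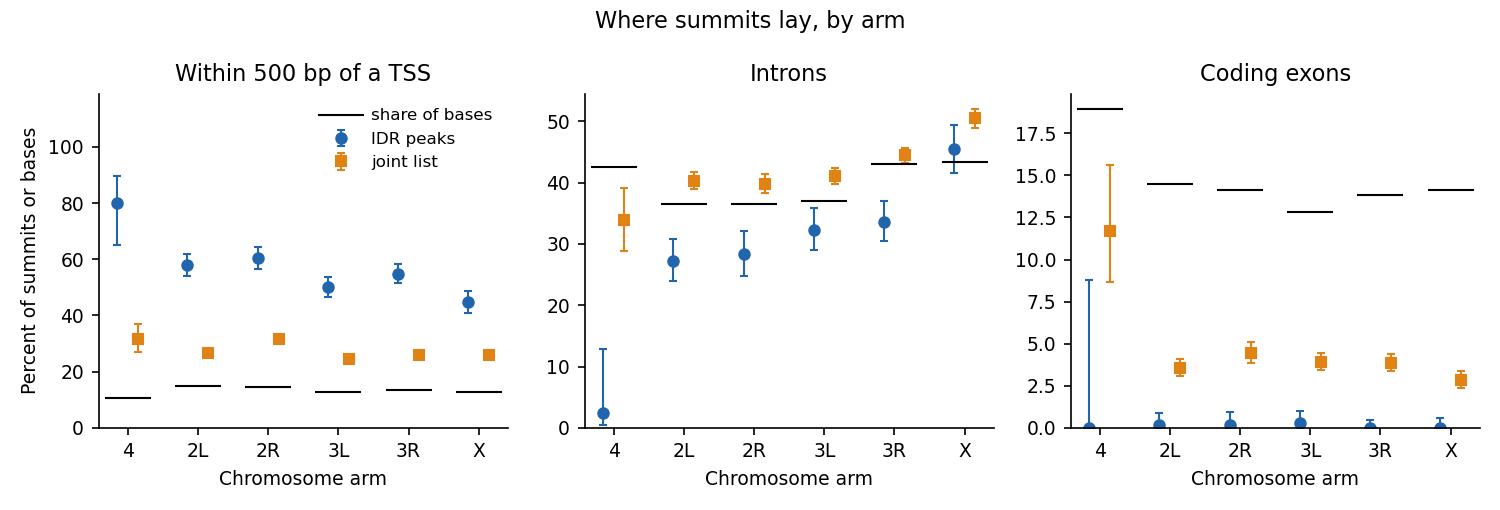
Percentage of summits within 500 bp of a TSS, in introns and in coding exons on each arm, for IDR peaks (blue circles) and the joint list (orange squares), with 95% Wilson intervals; black lines give the share of the arm's bases. On chromosome 4 the IDR peaks are at 80.0% in promoters and 2.50% in introns, and the joint list is at 11.7% in coding exons, above the other arms.

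Occupied promoters made up a large part of the genes of chromosome 4. An IDR summit lay within 500 bp of a TSS in 32 of its 80 protein-coding genes (40.0%, interval 29.96% to 51.0%), against 16.5% of protein-coding genes in the genome and 16.4% on the other 5 arms (13.8% on X to 17.9% on 3L). With the strongest regions of replicate 2 the share was 40.0% on chromosome 4 and 16.3% elsewhere, and with those of replicate 3 it was 28.75% on chromosome 4 (23 genes) and 15.4% elsewhere. With only the strongest 860 IDR peaks, the share was 2.50% on chromosome 4 (2 genes) and 5.27% elsewhere. Any joint summit was found at a TSS of 63 genes on chromosome 4 (78.75%), against 42.4% of genes in the genome and 42.2% on the other arms (41.3% to 43.4%). All 32 genes with an IDR summit also had a summit of each replicate's complete list within 500 bp of a TSS. Of all 80 protein-coding genes of the chromosome, 47 had summits of both replicates there. Such a summit need not match the IDR peak: that of CaMKII in replicate 3 lies at another TSS. Genes of chromosome 4 are long and have more TSSs than most (mean 1.775 on chromosome 4 and 1.40 elsewhere), which gives each more promoter sequence. Among genes with 1 TSS, 35.7% were occupied on chromosome 4 (15 of 42, interval 23.0% to 50.8%) and 12.7% on the other arms. Among genes with 2 or more TSSs, 44.7% were occupied on chromosome 4 (17 of 38, interval 30.1% to 60.3%) and 26.7% elsewhere. Genes spanning 10000 bp or more were occupied in 35.0% of cases on chromosome 4 (14 of 40, interval 22.1% to 50.5%) and 22.3% elsewhere, and shorter genes in 45.0% of cases on chromosome 4 (18 of 40, interval 30.7% to 60.2%) and 15.4% elsewhere. Whether these genes are more often transcribed in embryos than genes on other arms was not tested. Of the 38 other genes of chromosome 4, mostly noncoding, 1 had an IDR summit at a TSS, the pseudogene CR43361, which shares its peak with unc-13.

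**Figure D4:**
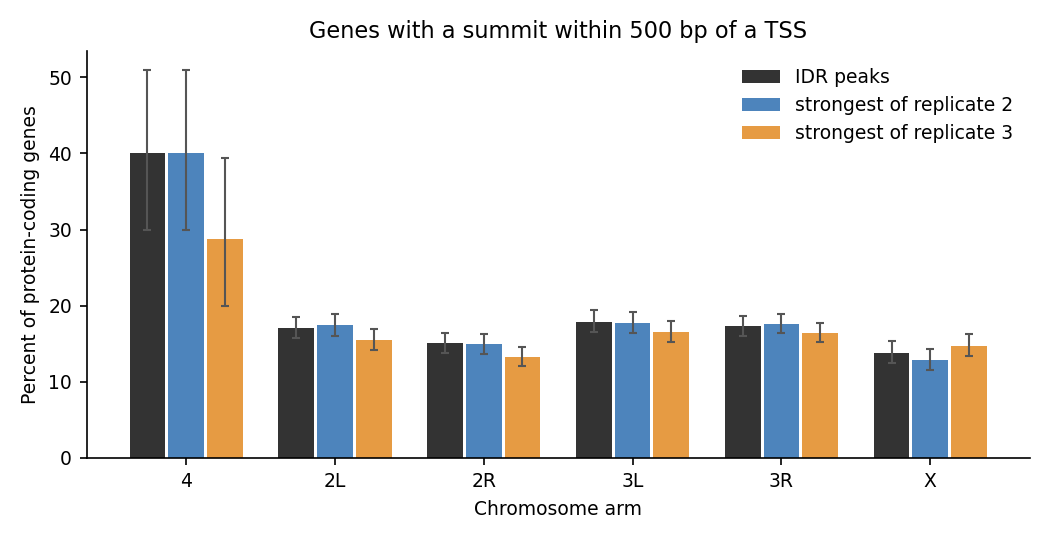
Percentage of protein-coding genes with a summit within 500 bp of a TSS on each arm, for IDR peaks (black) and for the strongest 3438 regions of replicate 2 (blue) and replicate 3 (orange), with 95% Wilson intervals. Chromosome 4 stands at 40.0%, 40.0% and 28.75%, above the other arms in each.

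The members of that set span many functions. Signals below are the joint value followed by the value of the matching summit within 150 bp in each replicate. Among receptors and signalling genes, 7 of 14 on chromosome 4 had an IDR summit at a TSS and 11 had any joint summit. Over all protein-coding genes of the chromosome the shares were 40.0% and 78.75%. PlexA, a semaphorin receptor gene on the minus strand (chr4:1009895-1027101), had the strongest peak, 147 bp upstream of its TSS at chr4:1027173-1027343, with a signal of 214 in the joint list, 98.2 in replicate 2 and 111 in replicate 3. It was high in both libraries, and it was 1 of only 4 IDR peaks of the chromosome with the higher signal in replicate 3. PlexB, the gene of the other plexin, had 80.2 in the joint list, 53.9 in replicate 2 and 23.6 in replicate 3. Both plexin promoters were thus occupied, with the PlexA peak the stronger in each list. Eph, the ephrin receptor gene, had 78.2 in the joint list, 41.9 in replicate 2 and 24.0 in replicate 3, while the promoter of its ligand gene Ephrin had no joint summit and a summit of 16.4 in replicate 2 alone. The adaptor gene Crk had 84.3, 42.1 and 37.3, and the lipid kinase gene PIP4K had 79.6, 46.0025 and 26.9. CaMKI, a calcium-dependent kinase gene, had 60.6, 30.9 and 28.9, and Slip1 shares a peak of 66.9 (40.1 in replicate 2 and 36.9 in replicate 3) with the divergently placed CG46466, a gene named here after its values were seen.

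Of 18 genes grouped here as transcription factors and cofactors, 5 had an IDR summit at a TSS and 12 had any joint summit. The shares over all protein-coding genes of the chromosome were 40.0% and 78.75%. The 5 were pho, lgs, Sox102F, Hcf and CG11360. CG11360 was placed in the group although its role is not stated in the annotation used here. The peak of pho, which encodes a DNA-binding recruiter of Polycomb complexes, lay 278 bp upstream with a signal of 106 in the joint list, 69.4 in replicate 2 and 46.04 in replicate 3. The peak of lgs, a coactivator gene of Wnt signalling, had 78.4, 40.4 and 32.5, that of the HMG-box gene Sox102F had 72.5, 47.5 and 33.3, and that of Hcf, the host cell factor gene, had 70.2, 36.3 and 30.5. CG11360 had 87.5, 57.1 and 29.8. All 5 were higher in replicate 2, as were 32 of the 36 chromosome 4 IDR peaks matched in both replicates (88.9%, 81.1% elsewhere). The other 13 had no IDR summit at a TSS. Among them, joint signals at a TSS were 33.9 for pan (the TCF factor of the Wnt pathway), 33.4 for the Pax6 gene ey, 29.1 for zfh2 and 21.4 for ci (the Hedgehog pathway factor), all below the IDR peaks. The Pax6 gene toy and the Pax2 gene sv had no summit at a TSS in any of the lists.

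In the group of RNA, translation and protein turnover, 3 of 4 genes on chromosome 4 had an IDR summit at a TSS and all 4 had any joint summit. The shares over all its protein-coding genes were 40.0% and 78.75%. RpS3A, which encodes a ribosomal protein of the small subunit, had a peak 83 bp upstream with 156 in the joint list, 96.8 in replicate 2 and 59.8 in replicate 3. Its neighbouring peak 284 bp upstream had 59.2, 16.0 and 20.8. The gene gw, which encodes the GW182 protein of microRNA silencing, had 3 IDR peaks at its TSSs, the strongest with 117 in the joint list, 64.0 in replicate 2 and 44.7 in replicate 3. The others had joint signals of 90.4 and 59.99, and the weakest overlaps the strongest. Rad23, a gene of DNA repair and proteasome delivery, had the weakest IDR peak of the chromosome, with 58.6 in the joint list, 48.2 in replicate 2 and 10.8 in replicate 3. The fourth member, the translation initiation factor gene eIF4G1, had a joint signal of 29.8 and lacked a summit in replicate 3. Both members of the mitochondrial and energy group on chromosome 4 were occupied: ND-49, a subunit gene of respiratory complex I, had 87.1, 51.3 and 21.99, and ATPsynbeta, of the ATP synthase, shared a peak of 76.6 (51.0 in replicate 2 and 24.1 in replicate 3) with CG11076. Outside the groups, 4E-T, a gene of mRNA repression through eIF4E, had 82.4, 53.3 and 19.0, and Gyf had 98.9, 67.8 and 29.0.

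In the cytoskeleton and muscle group 4 of 6 genes were occupied at a TSS, and in the synaptic and membrane transport group 3 of 10, with 9 of 10 having any joint summit. Arl4, a gene of a small GTPase, had 113 in the joint list, 66.2 in replicate 2 and 42.5 in replicate 3. The stretch with TSSs of both Zyx (the focal adhesion protein zyxin) and apolpp (the lipid carrier apolipophorin) had 109, 54.1 and 52.4 at its stronger peak and 74.0, 39.7 and 21.0 at its weaker peak. A peak between Cals (calsyntenin) and the GTPase gene Arf4 had 88.9, 34.0 and 46.6, and here replicate 3 was the higher. Ank, the ankyrin gene, had 59.6, 38.9 and 19.9, and unc-13, of synaptic vesicle priming, had 71.5, 48.7 and 15.2. CG31998 and MED26, which are in none of the groups, had 74.3 and 73.1 in the joint list. The 3 genes of the chromatin-linked group on chromosome 4 (pho, Hcf and Rad23) were all occupied, and all are counted above. For scale, 40.0% of all protein-coding genes of the chromosome were occupied, and 78.75% had any joint summit at a TSS. The groups overlap and are small, and no count among them was tested against those shares.

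**Figure D5:**
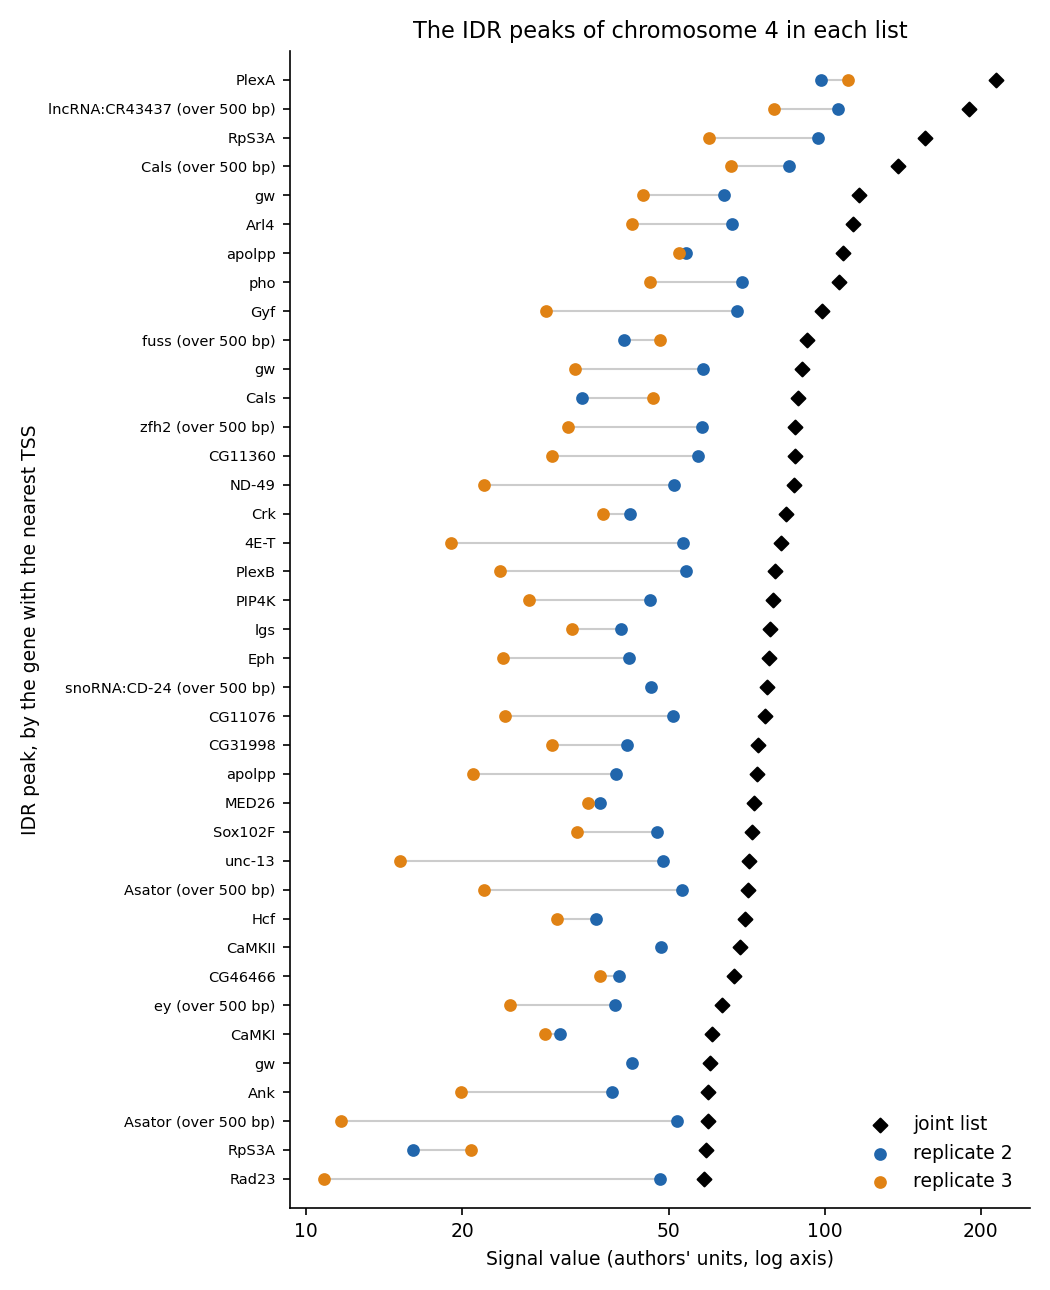
Signal of 39 of the 40 IDR peaks of chromosome 4 in the joint list (black diamonds) and of the matching summit within 150 bp in replicate 2 (blue) and replicate 3 (orange), on a log axis in the authors' units, ordered by joint signal and named by the gene with the nearest TSS; "over 500 bp" marks summits farther than that from every TSS. Replicate 2 is the higher in 32 of the 36 peaks matched in both, and 3 of the plotted peaks have no replicate 3 summit within 150 bp.

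The remaining 8 IDR peaks lay farther than 500 bp from every TSS, 6 of them intergenic, and they were as strong as the promoter peaks, with a median joint signal of 82.7 against 78.3 for the 32 promoter peaks. The strongest was at chr4:424744-424902, 1260 bp upstream of the noncoding gene lncRNA:CR43437, with 190 in the joint list, 106 in replicate 2 and 79.9 in replicate 3. Next was a peak at chr4:1113052-1113471 where the 3′ UTRs of the convergent genes Cals and sv overlap, with 138, 85.4 and 66.0. Both were high in each library. Peaks lay 4481 bp upstream of fuss, a gene of the Ski and Sno family (92.6, 41.0 and 48.1), and 3895 bp upstream of zfh2, which encodes a zinc finger homeodomain protein (87.8, 58.1 and 32.0). Another lay 2108 bp downstream of the start of snoRNA:CD-24 with 77.5 in the joint list and 46.3 in replicate 2. Replicate 3 had no summit within 150 bp of it, but an overlapping region with a signal of 26.97 had its summit just past that distance. The peak near ey was 776 bp upstream of its nearest TSS and had 63.3, 39.4 and 24.7. Asator, a kinase gene, had a peak 537 bp upstream with 71.1, 53.0 and 22.01, and the single intronic peak of the chromosome, 678 bp upstream of another of its TSSs, with 59.6, 51.8 and 11.7.

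Just outside the IDR threshold, the strongest regions were also at promoters. They lay at CG32017 (56.7), lgs (53.9), CaMKII (53.8), PlexA (53.5) and Rnf11 (53.4), and each had a summit in both replicate lists. Those at lgs and PlexA overlap the IDR peak of the same promoter, so they add no further occupied gene. The weakest IDR peaks were those of Rad23 (58.6), RpS3A (59.2), the Asator intron (59.6), Ank (59.6) and gw (59.99). Most regions were far weaker, with a median of 22.7 over the 285 that are not IDR peaks.

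Most IDR peaks of chromosome 4 were found in both replicates. These peaks are the strongest regions of a list made from the same replicates. A match in the complete lists is therefore largely fixed in advance, and the share is read only against the other arms. A summit of each replicate's complete list lay within 150 bp of 36 of the 40 IDR peaks (90.0%, interval 76.9% to 96.0%), against 96% in the whole genome and 96.1% on the other 5 arms (95.1% to 97.6%). The chromosome 4 share was below every other arm, and the value of the other arms together lies just above the interval. Replicate 2 had a summit at 40 of 40 peaks. Those without a replicate 3 summit at that distance numbered 4 and included, named after their values were seen, the peak near snoRNA:CD-24, that of CaMKII and the weakest of gw. When any overlap of regions counted as a match, 39 of the 40 peaks were found in both replicates (97.5%, against 98.2% elsewhere). Of the 36 found in both, 32 had the higher signal in replicate 2 (88.9% on chromosome 4, 81.1% elsewhere). The median log2 ratio of replicate 2 to replicate 3 signal was 0.66 on chromosome 4 and 0.46 on the other arms (0.39 to 0.50), and since the lists were scored separately the ratio is read only against that of the other arms. Against the strongest 3438 regions of each replicate, 37 of the 40 peaks were matched in replicate 2 and 23 in replicate 3. Matches among the strongest regions of both were found for 21 of the 40 (52.5%, interval 37.5% to 67.1%), against 69.7% elsewhere.

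Over the whole joint list, matching in both replicates was less frequent on chromosome 4 than on the other arms. A summit in both replicates was found for 99 of 325 regions of chromosome 4 (30.5%, interval 25.7% to 35.7%), against 38.8% of all joint regions and 38.9% on the other arms (36.9% to 43.2%). Matches were in replicate 2 alone for 37.5% of the regions on chromosome 4 and 28.4% elsewhere, in replicate 3 alone for 21.8% on chromosome 4 and 24.9% elsewhere, and in neither for 10.2% on chromosome 4 and 7.85% elsewhere. Seen from replicate 2, 107 of its 466 regions on chromosome 4 (23.0%) had a summit of replicate 3 nearby, against 32.9% elsewhere. Seen from replicate 3, 100 of 300 did so (33.3%), against 32.2% elsewhere.

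Over all joint regions, IDR peaks included, chromosome 4 differed from the other arms in where summits lay. Promoter summits were 31.7% of the joint regions on chromosome 4 (103 of 325, interval 26.9% to 36.9%), against 26.8% in the genome and 26.7% on the other arms. The highest value among those arms was 31.7% (2R). Of the 103 promoter regions, 32 were IDR peaks and 71 were not. In replicate 2 alone the promoter share was 26.8% on chromosome 4 and 29.5% elsewhere. Coding exons held 11.7% of joint summits on chromosome 4 (38, interval 8.64% to 15.6%) and 3.74% on the other arms (2.84% to 4.45%). The same measure was 12.9% on chromosome 4 and 4.76% elsewhere in replicate 2, and 18.0% on chromosome 4 and 6.78% elsewhere in replicate 3. Coding exons were 18.9% of the bases of chromosome 4 and 13.8% of the other arms. None of the 38 was an IDR peak, their signals ran from 17.8 to 31.8 with a median of 20.8, and only 6 had a summit in both replicates. IDR peaks in coding exons were few on the other arms too, at 0.118% of their IDR peaks. Genes holding several of them included unc-13 (5), bt, which encodes the giant muscle protein projectin (4), and zfh2 (3).

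Annotated transposable elements held 12.6% of joint summits on chromosome 4 (41, interval 9.44% to 16.7%) and 0.869% on the other arms (0.459% to 1.54%). The values were 9.44% on chromosome 4 and 0.762% elsewhere in replicate 2, and 14.7% on chromosome 4 and 1.15% elsewhere in replicate 3. These shares stand below the 24.8% of bases that such elements cover on chromosome 4, as the share of the other arms stands below its 5.74%. Of the 41 summits, 21 lay in copies of INE-1 alone and 6 in copies of 1360 alone, both families with many copies on this chromosome. None was an IDR peak, the median signal was 21.9, and 11 had a summit in both replicates. IDR peaks in such elements were few on the other arms too, at 0.324% of their IDR peaks. The 0 of 40 on chromosome 4 allows up to 8.76%. How reads from repeated sequence were placed is not stated by the labels or file notes, and its part in these counts was not tested.

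Along the chromosome, IDR summits lay between positions 43872 and 1196965, with a median gap of 19665 bp and the widest, 97857 bp, between Crk and Rad23. In windows of 100000 bp the first 12 held 18 to 36 joint regions and 1 to 7 IDR peaks each. The window from 1200001 to 1300000 held 13 joint regions and no IDR peak, with a highest signal of 28.9, and transposable elements covered 43.5% of it. The final 48131 bp held no joint region and no annotated TSS, and elements covered 95.4% of it. The genes whose spans held the most joint summits were unc-13 (15), pan (14), and Asator, bt and zfh2 (9 each), of which unc-13 and Asator had 1 IDR summit within the span and the others none.

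The IDR peaks of chromosome 4 more often held CGATA near the summit than IDR peaks on any other arm. Motif shares at summits were computed for the joint list and its IDR peaks only. Whether they stand in each replicate's list or under the alternatives below was not examined. Within 100 bp of the summit, on either strand, CGATA was found at 23 of the 40 peaks (57.5%, interval 42.2% to 71.5%), against 28.0% on the other 5 arms (25.8% to 30%). Among promoter peaks alone it was 62.5% on chromosome 4 (20 of 32, interval 45.3% to 77.1%) and 34.3% on the other arms (30.4% to 37.8%). The joint regions of chromosome 4 that were not IDR peaks had 25.96%, close to the 23.3% of all joint regions, and windows of the same length at TSSs had 39.9% on chromosome 4 and 34.7% on all arms. The full palindrome TATCGATA was present at 5 of 40 peaks (12.5%, interval 5.46% to 26.1%), against 3.03% on the other arms (2.55% to 3.73%), 1.71% of all joint regions and 5.45% of all TSSs. Among promoter peaks alone the share was 9.38% on chromosome 4 (3 of 32, interval 3.24% to 24.2%) and 5.49% on the other arms (4.34% to 6.52%), so that interval includes every other arm. The 5 peaks with the palindrome were those of PlexA, Crk, the peak near snoRNA:CD-24, Hcf and ey. As the printed sequences show, the ey peak has the palindrome and further CGATA copies (5 matches in all), and the PlexB peak has 4 CGATA copies without the palindrome. Not every strong peak has the motif: the peak beside lncRNA:CR43437 has none. The stronger RpS3A peak has a single copy of CGATA. Chromosome 4 holds 133 copies of the palindrome, 5 of them within 100 bp of an IDR summit.

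For each of the other 10 motifs searched, the interval on chromosome 4 included the value over the other 5 arms. The TATA box letters were found at 40.0% of the IDR peaks of chromosome 4 and 41.3% on the other arms. The GATA factor motif TGATAA was at 12.5% on chromosome 4 and 18.3% elsewhere. The run AAAAAAAA was at 10% on chromosome 4 and 16.7% elsewhere. The repeat ATATATAT was at 10% on chromosome 4 (4 of 40) and 6.39% elsewhere. GGTCACAC, the core of the core promoter element Motif 1, was at 2.50% on chromosome 4 (1 of 40) and 1.27% elsewhere. CATCNCTA, from Motif 7, was at 2.50% on chromosome 4 and 3.86% elsewhere, and CACACACA was at 0 of 40 on chromosome 4 and 2.06% elsewhere. GCCATNT, part of the PHO site, was found at 1 of 40 peaks (2.50%, interval 0.443% to 12.9%) and 9.33% elsewhere, and GAGAGAG (the GAGA factor site) and CACGTG (an E-box) at 0 of 40, which allows up to 8.76%, against 3.12% and 1.80% elsewhere. The windows of IDR peaks had a median A+T content of 68.2% on chromosome 4 and 66.7% elsewhere. A match to a motif is a description of the letters present and was not tested as a site of binding.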

How the data were processed

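ChIP-seq of E(var)3-9-GFP was done in 2 biological replicates of whole embryos, which form 1 group. The authors deposited lists of peaks and background for IDR per replicate and for the pooled replicates set against a control. They also deposited the pooled regions that passed IDR, per the file notes, all in assemblies dm6 and dm3. No aligner, peak caller or IDR threshold is given in the sources used here. Each region's signal value is the authors' own score and has no stated scale. Arms were compared only within a list, and which replicate is higher is read only against other peaks. The deposited −log10 q-value was read and enters no result. Read depth is unknown, and no column was left unmapped (0 others).

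Regions were read as 1-based dm6 positions. Genes came from Ensembl release 115 and sequence from RefSeq Release 6, the same assembly as dm6. Each summit was assigned to a promoter (within 500 bp of a TSS) or else to coding exon, UTR, noncoding exon, intron or intergenic sequence, and separately to annotated transposable elements. Without stated read lengths or mapping filters, the mappability of repeats cannot be set beside these counts. Replicates were matched by summits within 150 bp, and motifs were sought within 100 bp of summits on both strands. Shares have 95% Wilson intervals. No statistical test was run. The matching of summits, distances to the nearest site and overlaps of regions were tested on simulated regions. The assignment of summits to sequence classes was not. Python 3.11.15 with numpy 2.4.6, pandas 2.3.3 and matplotlib 3.10.9 was used.

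Named genes were those with an IDR summit at a TSS or nearest to a farther IDR peak (the 30 strongest), the 5 genes with the most summits in their span, the occupied members of 7 gene groups, and the 5 regions on each side of the threshold. The genes ci, toy, Ephrin, eIF4G1 and CG46466 were named after their values were seen. The gene at 1 IDR peak of chromosome 4 is not reported here; the peak is in all counts but not in the plot of single peaks. The members, gene groups, motifs and rules were chosen with earlier results of these data known. Alternatives were a stricter threshold, each replicate left out, other distances, protein-coding TSSs, merged regions, dm3 lists and omission of bins with no TSS.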

Additional observations from a re-analysis of the deposited data

How the results depend on the processing

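Of 37 alternatives over 10 results, 18 gave a value within the interval of the reported one and 19 did not, and in 32 chromosome 4 stayed on the same side of the other 5 arms. With the strongest 860 IDR peaks, of which 4 are on chromosome 4, it changed sides in all 3 results recomputed: density was 3.00 per Mb on chromosome 4 and 6.47 elsewhere, the promoter share 50% (2 of 4) and 62.4%, and the share of genes occupied 2.50% (2 of 80) and 5.27%. With each replicate left out in turn, density of the strongest regions was 23.3 and 31.6 (25.7 elsewhere in both, so without replicate 2 chromosome 4 is the lower), and the density of all regions 225 and 350. The promoter share of all regions was 23.0% and 26.8% (19.3% and 29.5% elsewhere, so without replicate 3 chromosome 4 is the lower), that of the strongest 77.4% and 76.2%, and the share of genes occupied 28.75% and 40.0%. In dm3, the joint density was 198 on chromosome 4 and 156 elsewhere (over dm6 bases) and the median joint signal 25.6 on chromosome 4 and 27.1 elsewhere. Promoters defined within 250 bp held 65.0% of IDR peaks (40.6% elsewhere) and 21.5% of joint regions (18.2% elsewhere), within 1000 bp 40.6% of joint regions (37.6%), and with protein-coding TSSs 26.8% (24.2%). Matching in both replicates was 57.5% of IDR peaks and 16.6% of joint regions at 50 bp, 97.5% and 44.9% for any overlap, and 52.5% and 6.77% within the strongest regions of each replicate, with chromosome 4 below the other arms in each, by 0.734 percentage points for IDR peaks with any overlap. Causes were not tested. With 40 IDR peaks, the number of regions limits every share. No paired analysis was possible because there is 1 group.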

Other observations

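Replicate 2 and replicate 3 each had strong regions on chromosome 4 with no IDR summit within 150 bp. Among the strongest 3438 of its list, replicate 2 had 4 such regions. They lay at mGluR (45.6), which encodes a glutamate receptor, CG32017 (42.0), anne (40.2) and in the 5′ UTR of myo (37.4), and of these only CG32017 had a matching summit in replicate 3 (29.7). Replicate 3 had 8, the strongest at CaMKII (33.01), CG32017 (29.7) and Arf4 (27.4), and 6 of them had a matching summit in replicate 2. Those at Arf4 and lgs and near snoRNA:CD-24 overlap an IDR peak, with summits more than 150 bp from its summit. At Arf4 the matching summit in replicate 2 is the one given above for the peak between Cals and Arf4. These regions were named after their values were seen.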
